A study of Mus musculus with 14 samples.

Results

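The genes described here encode replacement histones, the histone proteins that can enter chromatin outside DNA replication, together with the linker histone of the oocyte. They were chosen by name as genes with polyadenylated messages: H1foo, H1f0 and H1fx for linker histones, H2afx, H2afz, H2afv, H2afy and H2afj for variants of H2A, and H3f3a and H3f3b for H3.3. These are 10 of the 24064 genes in the count table, and 15432 of those had a count in any oocyte. H1fx had no count, and the other 9 genes passed the filter on low totals and were tested.

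Most histone genes lie in clusters, are transcribed in S phase and give messages without a poly(A) tail. Replacement histone genes lie alone and are used throughout the cell cycle, so a growing oocyte, which does not replicate its DNA, relies on their stored messages and proteins. H1foo is made in oocytes, where it takes the place of the somatic linker histones, and maternal H3.3 is loaded into the paternal genome after fertilisation.

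RNA was sequenced from single ovulated mouse oocytes after poly(A)-primed amplification, to compare oocytes with and without the histone demethylase KDM1A. The 4 wt/wt oocytes (wt1, wt3, wt4 and wt5) carried intact Kdm1a on a C57BL/6J background. The f/f oocyte (C3) carried floxed Kdm1a without Cre on a mixed B6;129 background. Mutant oocytes (D1, D2, D3, D4, D7) numbered 5 and came from females of the mixed B6;129 background with floxed Kdm1a and Zp3-cre, which is expressed in growing oocytes. The labels give no age for the females. The 14 libraries were taken as 10 oocytes, because C3, D3, D4 and D7 each name a pair of libraries, which were summed. The descriptions number the libraries of a pair separately. The labels do not say that oocytes came from separate females, so the p-values measure the spread between these oocytes.

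Total counts were 1375187 in wt1, 1740242 in wt3, 1892015 in wt4, 1637050 in wt5 and 6928548 in C3. They were 2346547 in D1, 2016701 in D2, 3245395 in D3, 6926076 in D4 and 2135951 in D7. Depth was therefore greatest in C3 and D4. Strain separates the wt/wt oocytes from all others, so among controls the f/f oocyte alone shares its strain with the mutants, and strain and genotype cannot be told apart in the wt/wt comparison. Values of the f/f oocyte are given on their own for this reason. The wt/wt libraries also carry titles of another style than those of C3 and the mutants, and the labels do not say why. Any difference in handling that went with the titles could not be told apart from strain.

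Levels are given in CPM, counts scaled to a common library size after adjustment by TMM factors. Kdm1a itself had 38.6, 18.5, 34.7 and 12.1 CPM in wt1, wt3, wt4 and wt5, 148 CPM in C3, and 0, 1.22, 1.42, 0.455 and 4.98 CPM in D1, D2, D3, D4 and D7. Every mutant oocyte was below every control oocyte. Markers of oocytes were abundant as a sum in each sample, with a summed level of 10 genes from 19576 CPM in wt1 to 115051 CPM in D1. Gdf9, an oocyte growth factor, had the highest mean CPM of them, and Oosp1, an oocyte-secreted protein, stood above it in wt1 and wt4. Not each marker was abundant, since Figla had 0, 0, 1 and 0 counts in wt1, wt3, wt4 and wt5, and 4 in C3.

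Calls needed an adjusted p under 0.05 (edgeR's quasi-likelihood test, Benjamini-Hochberg over 9198 genes) and a log2 fold change of 1 or more in size. H3f3a and H2afx were called higher in mutant oocytes, 2 of 9 tested, beside 14.7% of all genes tested. H1f0 and H2afv were called lower, again 2 of 9, beside 11.2% of all genes. In either direction 4 of 9 were called, beside 25.9%. The control and mutant oocytes did not overlap for 3 of the 9, H3f3a, H1f0 and H2afv, beside 16.2% of all genes. H2afv and H2afy passed the filter on low totals through the group where they were high, which a count of calls does not allow for. Of the other 7 genes 2 were called higher and 1 lower, and 2 did not overlap. The median log2 fold change was 0.13 over the 9 genes and 0.17 over all genes tested. Nothing particular to these genes was read from the counts. Against the wt/wt oocytes alone 5 of 9 were called, beside 31.5%, and H1foo was the added gene.

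Against the f/f oocyte alone, an alternative chosen after seeing the data, edgeR called 0 of the 8 genes tested, with 0 at an unadjusted p under 0.05. In that fit 3 genes of all 8811 tested were called (0.034%) and 1670 had an unadjusted p under 0.05. Kdm1a was 1 of the 3. Of the other genes named below, those with a value in that fit were not called, and H2afv, Actr6 and Has2 were among those without one. The lone control was assumed to vary like the mutant oocytes. No other tool was run on it.

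**Figure D1:**
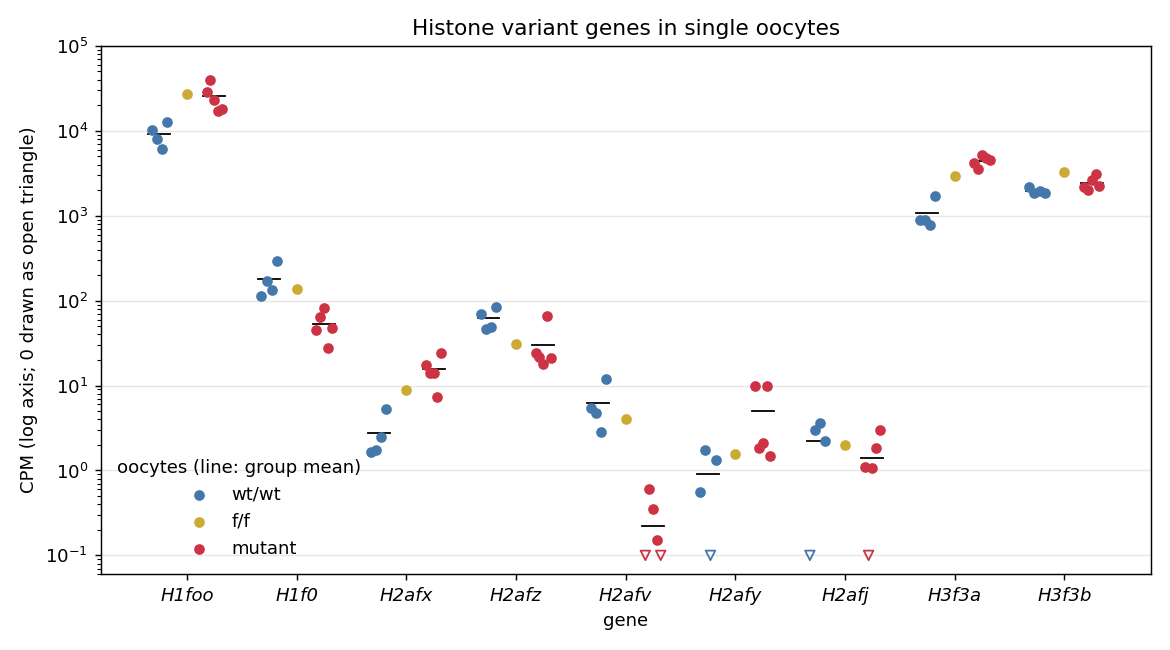
Level of 9 genes in CPM (vertical log axis) in each oocyte, with wt/wt in blue, f/f in yellow and mutant in red, group means as lines and values of 0 as open triangles. H3f3a is higher, and H1f0 and H2afv are lower, in each mutant oocyte than in each control oocyte. The f/f oocyte lies within the range of the mutant oocytes for H1foo, H2afx, H2afz, H2afy and H2afj.

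The linker histones bind the DNA that enters and leaves the nucleosome. H1foo, the oocyte form, is found at positions 115944938 to 115950236 of chromosome 6 (GRCm38, which is mm10), plus strand. It had 10099, 7975, 6040 and 12846 CPM in wt1, wt3, wt4 and wt5, 27306 CPM in C3, and 29016, 39928, 23340, 16944 and 17997 CPM in D1, D2, D3, D4 and D7. Each mutant oocyte was above each wt/wt oocyte, but the f/f oocyte was above 3 of the 5 mutants. By mean CPM it ranked 4 among all genes in wt/wt and 3 in mutant oocytes, and it took 1.23% ± 0.414 (SD, n = 4) of all counts in wt/wt oocytes, 1.78% in C3 and 2.17% ± 0.661 (SD, n = 5) in mutants. Against all controls its log2 fold change was 0.99 (SE 0.47, adjusted p = 0.126 from edgeR), which did not pass. Without C3 it was 1.48 (adjusted p = 0.00642) and was called, and against C3 alone it was -0.073 (adjusted p = 0.955). None of its 49-base stretches, the length of the reads, occurs in a transcript of another gene.

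H1f0, the linker histone of cells that have stopped dividing, lies on chromosome 15 from 79028450 to 79030504 on the plus strand. It had 113, 169, 134 and 295 CPM in wt1, wt3, wt4 and wt5, 136 CPM in C3, and 45.4, 63.9, 82.9, 27.4 and 47.8 CPM in D1, D2, D3, D4 and D7. The f/f oocyte lay within the wt/wt range, and all mutant oocytes lay below the lowest control. On the log2 scale the change was -1.67 (SE 0.39, adjusted p = 0.00645 from edgeR). Against C3 alone it was -1.32 (adjusted p = 0.278). The gene meets the antisense gene Gm49544 at its start, and the sources used here do not say whether counting used the strand.

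H1fx had 0 counts of 30243712 over the 10 oocytes. A count of 0 allows up to 3 counts, which is 0.0992 CPM of the unadjusted total, from counting error only. Of the summed counts of H1foo, H1f0 and H1fx, H1foo made up 98.9%, 97.9%, 97.8% and 97.8% in wt1, wt3, wt4 and wt5, 99.5% in C3 (95% Wilson interval 99.46% to 99.54%), and 99.84%, 99.84%, 99.65%, 99.84% and 99.74% in D1, D2, D3, D4 and D7. With H1fx at 0 this sets H1foo against H1f0, and clustered linker histone genes were left out of the share. Such a share is taken within an oocyte and needs no scaling between oocytes. All 5 mutant oocytes were above all 5 controls, with C3 the nearest control. The means differed by 1.40 percentage points (exact two-sided permutation p = 0.00794, the smallest that the groupings of 5 against 5 can give, and adjusted p = 0.00794 over 3 shares). With counts divided by transcript length the difference was 0.766 points.

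H2A variants replace H2A in part of the nucleosomes. H2afx encodes H2AX, which is phosphorylated around DNA breaks. It had 3, 4, 6 and 12 counts in wt1, wt3, wt4 and wt5, 40 in C3, and 32, 23, 40, 49 and 49 in D1, D2, D3, D4 and D7. In CPM these were 1.65, 1.72, 2.45 and 5.37 in wt/wt oocytes, 8.87 in C3, and 17.5, 13.99, 14.2, 7.43 and 24.4 in mutant oocytes. Each mutant oocyte was above each wt/wt oocyte, and C3 was above D4. H2afx differed by a log2 fold change of 1.89 (SE 0.57, adjusted p = 0.0244 from edgeR). The call was lost when 1 oocyte was left out, with 1.84 without D1 (adjusted p = 0.0538), 1.71 without D7 (0.0520), 1.70 without wt1 (0.0563), 1.71 without wt3 (0.0592) and 1.75 without wt4 (0.0604). Against C3 alone it was 0.83 (adjusted p = 0.611). Of its 49-base stretches 6.29% also occur in transcripts of other genes, many of them clustered H2A genes.

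H2afz and H2afv encode both forms of H2A.Z, a variant found at promoters. H2afz, on chromosome 3 from 137864487 to 137866922 on the plus strand, had 69.4, 46.1, 48.96 and 85.0 CPM in wt1, wt3, wt4 and wt5, 31.3 CPM in C3, and 24.1, 21.9, 18.1, 65.5 and 20.9 CPM in D1, D2, D3, D4 and D7. D4 lay within the wt/wt range, and the other mutant oocytes were below all controls. H2afz had a log2 fold change of -0.88 (SE 0.43, adjusted p = 0.139 from edgeR), which did not pass. Without D4 it was -1.39 (adjusted p = 0.0197), and with library totals in place of TMM it was -1.38 (adjusted p = 0.0476), both called. Against C3 alone it was -0.029 (adjusted p = 0.989). H2afz values are uncertain, because 69.9% of its 49-base stretches also occur in transcripts of 6 other genes, 4 of them pseudogenes, and the authors kept uniquely aligned reads.

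H2afv, on chromosome 11 from 6427229 to 6444443 on the minus strand, had 10, 11, 7 and 27 counts in wt1, wt3, wt4 and wt5, 18 in C3, and 0, 1, 1, 1 and 0 in D1, D2, D3, D4 and D7. Each control oocyte had more counts than all mutant oocytes together. Over the adjusted library sizes, the level from the 73 control counts was 27.2 times that from the 3 mutant counts (95% exact interval 8.94 to 135, for counting error only). It was called, with an adjusted p of 0.00238 from edgeR, but it passed the filter on totals through the control oocytes alone, and filterByExpr, another filter of edgeR, did not keep it. The fit against C3 alone did not include it, since its total was below the filter there. None of its 49-base stretches is shared with another gene.

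Of the H2A.Z counts, H2afz made up 92.6%, 90.7%, 94.5% and 87.6% in wt1, wt3, wt4 and wt5, 88.7% in C3 (95% Wilson interval 82.8% to 92.7%), and 100%, 97.3%, 98.1%, 99.8% and 100% in D1, D2, D3, D4 and D7. All mutant oocytes were above all controls, on 37 to 433 counts per oocyte. The means differed by 8.22 percentage points (exact two-sided permutation p = 0.00794, adjusted p = 0.00794 over 3 shares). H2afv, the other gene of this share, passed the filter on totals through the control oocytes alone, with 3 counts over the mutant oocytes. H2afz itself was not higher in mutant oocytes (log2 fold change -0.88), so the share restates the low H2afv counts and is no separate result. The percentages are also uncertain, since 69.9% of the H2afz stretches of read length occur in other genes and none of those of H2afv do.

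H2afy encodes macroH2A1, an H2A with a large extra domain that is known from the inactive X chromosome. It had 1, 4, 0 and 3 counts in wt1, wt3, wt4 and wt5, 7 in C3, and 18, 3, 6, 66 and 3 in D1, D2, D3, D4 and D7. D1 and D4 stood above the rest, and the counts of the remaining mutant oocytes overlapped those of the controls. In CPM D7 alone overlapped, at 1.49 beside 1.72 in wt3 and 1.55 in C3. H2afy had a log2 fold change of 2.23 (SE 0.85, adjusted p = 0.0612 from edgeR). It was called without D7, at 2.48 (adjusted p = 0.0449), with every library as its own sample, at 2.17 (adjusted p = 0.049), and with DESeq2, at 2.30 (adjusted p = 0.0316). H2afy passed the filter on totals through the mutant oocytes alone, which these calls do not allow for. The fit by library also took both libraries of a pair as separate samples. H2afj, a variant close to canonical H2A, had 0 to 9 counts in control and 0 to 12 in mutants, and its log2 fold change was -0.61 (SE 0.90, adjusted p = 0.645 from edgeR). No difference in H2afj was detected.

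H3.3 differs from the H3 made in S phase by a few residues and is placed by its own chaperones. H3f3a and H3f3b encode the same protein from different messages. H3f3a, on chromosome 1 from 180800832 to 180813943 on the minus strand, had 894, 894, 787 and 1702 CPM in wt1, wt3, wt4 and wt5, 2930 CPM in C3, and 4143, 3585, 5177, 4810 and 4518 CPM in D1, D2, D3, D4 and D7. The f/f oocyte lay above every wt/wt and below every mutant oocyte. H3f3a had a log2 fold change of 1.62 (SE 0.41, adjusted p = 0.0101 from edgeR), and it was 2.05 against wt/wt alone (adjusted p = 0.000435) and 0.63 against C3 alone (adjusted p = 0.548). On the opposite strand lie the long noncoding gene Gm17275 and the antisense gene H3f3aos.

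H3f3b, on chromosome 11 from 116021912 to 116027962 on the minus strand, had 2178, 1836, 1952 and 1842 CPM in wt1, wt3, wt4 and wt5, 3289 CPM in C3, and 2155, 2007, 2617, 3132 and 2240 CPM in D1, D2, D3, D4 and D7. The highest value was that of the f/f oocyte, and the groups overlapped. H3f3b had a log2 fold change of 0.13 (SE 0.33, adjusted p = 0.793 from edgeR), and with library totals in place of TMM its sign turned, at -0.23 (adjusted p = 0.588). That scaling moved the median of all genes from 0.17 to -0.23 and the share of calls that were higher from 56.8% to 36.6%. Relative to these medians H3f3b was at -0.03 with TMM and -0.0042 with library totals, and H3f3a at 1.46 and 1.58.

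H3f3a made up 29.1%, 32.7%, 28.8% and 48.0% of the H3.3 counts in wt1, wt3, wt4 and wt5, 47.1% in C3 (95% Wilson interval 46.5% to 47.7%), and 65.8%, 64.1%, 66.4%, 60.6% and 66.9% in D1, D2, D3, D4 and D7. H3f3b thus gave the larger share in each control and H3f3a in each mutant oocyte. Among controls wt5 and C3 were closest to the mutants. The means were 37.1% ± 9.65 (SD, n = 5) and 64.7% ± 2.56 (SD, n = 5), a difference of 27.6 percentage points (exact two-sided permutation p = 0.00794, adjusted p = 0.00794 over 3 shares).

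**Figure D2:**
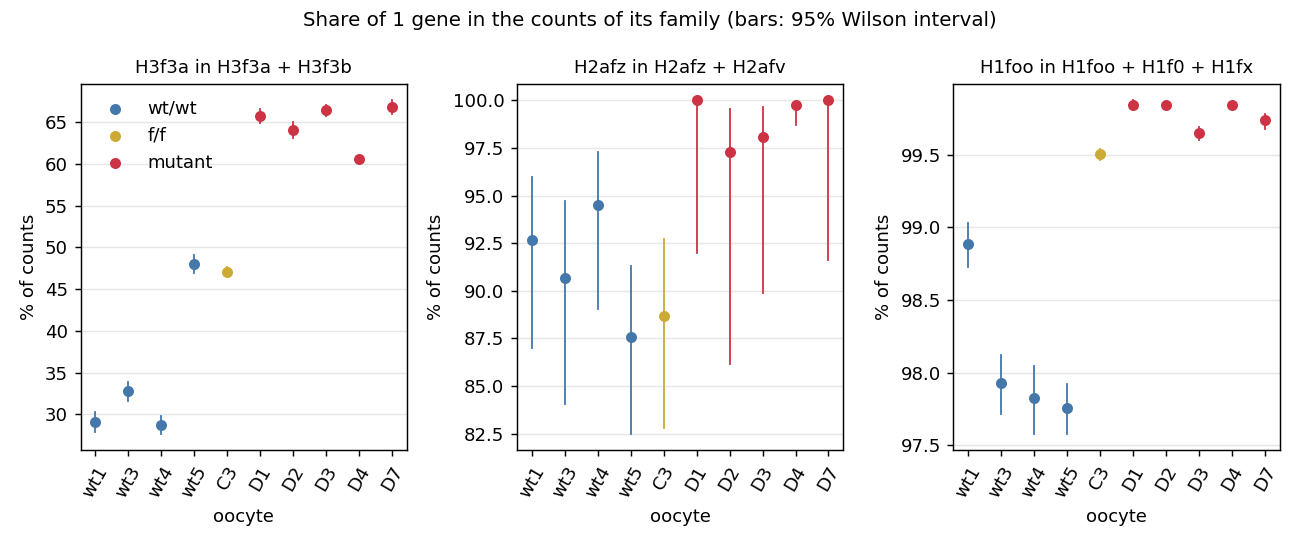
Share of H3f3a, H2afz and H1foo in the counts of their family (vertical axes in percent, not starting at 0) for each oocyte, with 95% Wilson intervals for counting error as bars. In each panel the 5 mutant oocytes lie above the 5 control oocytes, and for H2afz the intervals are wide.

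The coding sequences show why reads of such a pair can be assigned. Over 408 coding bases H3f3a and H3f3b differ at 95 (76.7% identity), and they share no stretch of 49 bases. The first 60 coding bases are printed 5′ to 3′ from GENCODE transcripts of GRCm38, with bases that differ within the pair in capitals. They lie at chr1:180811867-180811926 and chr11:116023950-116024009, both on the minus strand.
H3f3a: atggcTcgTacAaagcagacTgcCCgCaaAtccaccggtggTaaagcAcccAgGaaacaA
H3f3b: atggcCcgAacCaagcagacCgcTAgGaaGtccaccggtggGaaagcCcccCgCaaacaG
In these stretches 13 of the 60 bases differ. H2afz and H2afv differ at 80 of 384 coding bases (79.2% identity) and share no stretch of 49 bases either. Copies elsewhere are another matter, since 16.7% of the 49-base stretches of H3f3a occur in 42 other genes, 40 of them pseudogenes, and 11% of those of H3f3b in 3 other genes.

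Divided by transcript length in kb, the levels ran in wt/wt oocytes from H1foo at 8302 ± 2623 CPM per kb, through H3f3b at 979 ± 80.3, H3f3a at 376 ± 150 (SD, n = 4), H1f0 at 86.5 ± 39.5 and H2afz at 58.3 ± 17.1, to H2afv at 3.85 ± 2.46, H2afx at 2.02 ± 1.26, H2afj at 1.22 ± 0.873 and H2afy at 0.442 ± 0.379. H1f0 and H2afz did not differ beyond their spread, nor did the neighbours among the last 4. The level of H2afz is uncertain, since 69.9% of its stretches of read length also occur in other genes and uniquely aligned reads were kept. None of those of H1f0 do, so the order of H2afz and H1f0 is not settled in either group. In mutant oocytes H3f3a, at 1565 ± 216 CPM per kb (SD, n = 5), stood above H3f3b at 1219 ± 227. H2afz at 28.2 ± 18.6 and H1f0 at 26.02 ± 10.2 were within their spread, and H2afv, at 0.137 ± 0.159, was last. Since the cDNA is primed at the poly(A) tail, length corrects such levels only in part. Counts come from messages whose tail could be primed, and the part of tail length in the differences between groups was not tested.

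Other histone variants were 9 listed genes, of which 8 were in the table, 5 had no count and 2 were tested, H2afy2 and Cenpa. Of these, H2afy2 passed the filter on totals through the mutant oocytes alone, so its call is not counted. H2afy2, which encodes the other macroH2A, had 0 counts in each control oocyte and 7, 2, 17, 56 and 8 in D1, D2, D3, D4 and D7. Against 3 counts over the control group this was at least 26.9-fold higher. Cenpa, the H3 variant of centromeres, had 221, 224, 243 and 275 CPM in wt1, wt3, wt4 and wt5, 177 CPM in C3, and 47.1, 66.3, 120, 59.3 and 108 CPM in D1, D2, D3, D4 and D7. Each mutant oocyte was below each control, and the log2 fold change was -1.51 (SE 0.35, adjusted p = 0.006 from edgeR).

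Genes that place H3.3, among them the HIRA complex and DAXX-ATRX, numbered 8, and 7 were tested. edgeR and DESeq2 each called 0 of them, beside 25.9% and 30.9% of all genes, with 2 at an unadjusted p under 0.05 in edgeR, beside 39.4%, and their median log2 fold change was 0.24 beside 0.17 over all genes. The most abundant were the histone chaperones Asf1b, at 539 ± 43.5 CPM in control and 466 ± 169 CPM in mutant oocytes (SD, n = 5), and Asf1a, at 421 ± 165 and 220 ± 91.0 CPM. Asf1a was called lower without C3 (-1.10) or D3 (-1.13) and with library totals (-1.44, adjusted p = 0.0189). Cabin1, a subunit of the HIRA complex, had a log2 fold change of 1.06 (SE 0.46) and was called higher without C3 (1.48, adjusted p = 0.02) or D4 (1.32) and with counts thinned to the lowest total (1.20). Of 3 genes tested for deposition coupled to replication edgeR called 0, with 1 at an unadjusted p under 0.05, and DESeq2 called 1, beside the same shares of all genes. The 1 was Rbbp4, which edgeR called without C3 (1.36) and with filterByExpr in place of the filter on totals (1.04). It was at 135 ± 70.5 CPM in control and 269 ± 117 CPM in mutant oocytes, and Chaf1a, a subunit of CAF-1, at 1.98 ± 1.69 and 3.91 ± 2.64 CPM. Chaf1b, the last gene of this list, passed the filter on totals through the mutant oocytes alone. Of 3 genes tested for CENP-A deposition edgeR called 0, with 0 at an unadjusted p under 0.05, again beside 25.9% and 39.4% of all genes. Hjurp, 1 of these 3, passed the filter on totals through the control oocytes alone. DESeq2 called 0 of the 2 that it gave an adjusted p, and it gave none for Mis18a. The most abundant were Mis18a (log2 fold change 0.87, SE 0.86) and Oip5 (0.68, SE 0.78). Without wt5 Mis18a was called, at 3.54 (adjusted p = 0.000506 from edgeR). Oip5 ranged from 0.34 to 1.51 without 1 oocyte.

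H2A.Z exchange was represented by 12 genes, with 11 in the table and 9 tested, of which 2 were called, beside 25.9% of all genes. Vps72, the H2A.Z-binding subunit of the SRCAP complex, was called higher at a log2 fold change of 1.91 (SE 0.53, adjusted p = 0.016 from edgeR), with 57.02 ± 32.9 CPM in control and 215 ± 120 CPM in mutant oocytes (SD, n = 5), and D4 lay within the control range. Against C3 alone it was 1.23. Ruvbl1, an ATPase of these complexes, was called lower at -2.13 (SE 0.70), on 1 to 8 counts per mutant oocyte. That call was lost without any 1 of wt3, wt4, wt5, D2, D3, D4 or D7, with values of -2.07 to -1.77, adjusted p 0.067 to 0.0928 from edgeR, and also without the filter (-2.11, adjusted p = 0.0546) and with thinned counts (-2.08, adjusted p = 0.126). In C3 Ruvbl1 was at 2.22 CPM, within the mutant range of 0.498 to 3.83 CPM, and against C3 alone its log2 fold change was -0.43. DESeq2 called 3 of the 9, these 2 and Actr6, a subunit of the SRCAP complex, beside 30.9% of all genes to which it gave an adjusted p. Actr6 passed the filter on totals through the control oocytes alone, so its calls, by DESeq2 and in some alternatives of edgeR, are not counted. In edgeR it was at -2.33 (SE 0.85, adjusted p = 0.053). Ep400 and Yeats4 were the most abundant not called. The median of the 9 was -0.21.

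Chaperones of H2A-H2B and of linker histones were 9 tested genes, and 3 were called higher, beside 14.7% of all genes. Npm2, the oocyte nucleoplasmin, had 11.6, 3.01, 13.5 and 56.3 CPM in wt1, wt3, wt4 and wt5, 8.21 CPM in C3, and 634, 167, 145, 937 and 49.3 CPM in D1, D2, D3, D4 and D7. D7 fell below wt5, and the other mutant oocytes were above all controls. The log2 fold change of Npm2 was 4.39 (SE 0.84), that of Supt16, a FACT subunit, 2.82 (SE 0.63), and that of Nasp, which binds linker histones and H3-H4, 1.61 (SE 0.35). Without 1 oocyte Npm2 ranged from 3.76 (without D4) to 5.44 (without wt5), and Supt16 from 2.58 to 4.15 (without C3). Against C3 alone Npm2 was at 5.56, Supt16 at 1.12 and Nasp at 2.10. In C3 Supt16 stood at 59.7 CPM, above the 7.24 ± 2.59 CPM of wt/wt oocytes (SD, n = 4), and Nasp at 91.8 CPM, within their range. The abundant Npm1 and Nap1l1 were not called.

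Of 8 genes that phosphorylate or read H2AX, 7 were tested and 3 called, beside 25.9% of all genes. Atr, a kinase of the damage response, was called higher at a log2 fold change of 1.44 (SE 0.47). Trp53bp1, which binds chromatin at breaks, was called lower at -1.40 (SE 0.43), and so was the ubiquitin ligase Rnf168 at -1.05 (SE 0.34). None of the 3 calls was stable to leaving out an oocyte. Atr was not called without wt1, wt3, C3, D1, D2 or D7 (1.28 to 1.45, adjusted p 0.051 to 0.0792 from edgeR), nor with library totals (0.93, adjusted p = 0.228), without the filter (1.44, adjusted p = 0.0668) or with thinned counts (1.34, adjusted p = 0.056). Trp53bp1 was not called without C3, D1, D3 or D4 (-1.34 to -0.90, adjusted p 0.0463 to 0.0635 from edgeR). Rnf168 was not called without wt3, wt4, wt5, C3, D1, D3, D4 or D7 (-1.11 to -0.90, adjusted p 0.0514 to 0.0831 from edgeR), nor without the filter (-1.05, adjusted p = 0.0779) or with filterByExpr (-0.97, adjusted p = 0.0348). Against C3 alone Atr was at 2.19, Trp53bp1 at -2.47 and Rnf168 at -1.40. Baz1b and Rnf8 were the most abundant not called.

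**Figure D3:**
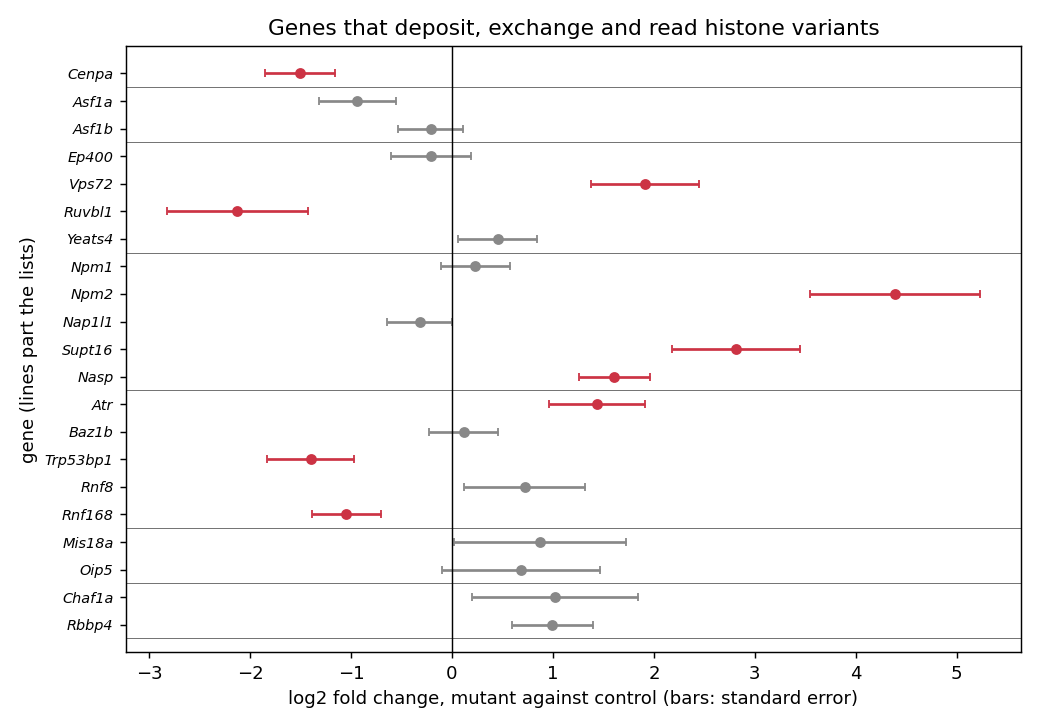
Log2 fold change between mutant and control oocytes (horizontal axis, with standard errors as bars) for genes that deposit, exchange or read histone variants, red where called. Of the genes drawn, Npm2 and Supt16 lie farthest to the right and Ruvbl1 farthest to the left. H2afy2 is left out because no control oocyte had a count, and Actr6 and Cabin1 are not drawn.

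Of 10 oocyte markers tested, 6 were called higher in mutant oocytes, beside 14.7% of all genes, with a median log2 fold change of 1.94 beside 0.17. Figla, 1 of the 6, passed the filter through the mutant oocytes alone, so its call is not counted, and 5 of the other 9 were called. The median includes Figla. Among the 6 were Zp2 (4.75), Zp3 (3.27), Dppa3 (2.27) and Figla (5.71). Without 1 oocyte Zp2 ranged from 4.15 to 5.39, Zp3 from 2.24 to 3.85, Dppa3 from 2.09 to 3.297 and Figla, with 316 of its 408 mutant counts in D4, from 5.03 to 6.97. The other 2 calls were lost on leaving out 1 oocyte, for Gdf9 (1.61, SE 0.54) without wt1, wt3, wt4, wt5, D1 or D2 (1.41 to 1.67, adjusted p 0.0592 to 0.0937 from edgeR), and for Zp1 (2.54, SE 0.80) without wt1, wt3, wt5 or D1 (0.93 to 2.59, adjusted p 0.0551 to 0.25 from edgeR). The other 4 did not pass, among them the abundant Bmp15 (0.92, SE 0.41), Oosp1, which was at -0.29 (SE 0.36), and Mos (0.42, SE 0.44). Bmp15 was called without wt5 (1.34). Nlrp5, a maternal effect gene and the last of the 4, moved further without wt5, from 1.29 (SE 0.69) to 3.10 (adjusted p = 0.000364 from edgeR), and was then called. The summed level was 19576, 20145, 20990 and 33414 CPM in wt1, wt3, wt4 and wt5, 59287 CPM in C3, and 115051, 83345, 63989, 49834 and 66786 CPM in D1, D2, D3, D4 and D7. As for H1foo, C3 lay among the mutant oocytes in this sum, of which Gdf9 made up 38287 CPM in C3. For Zp2, Zp3 and Figla C3 was at 36.6, 149 and 0.887 CPM, below every mutant oocyte, and for Zp2 and Zp3 it was within the wt/wt range. For Dppa3 C3, at 5551 CPM, lay between the wt/wt oocytes, at 845 to 1148 CPM, and the mutants, at 6999 CPM or more, and the log2 fold change against C3 alone was 0.72. The part of this in the values above was not tested.

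Of 12 markers of cumulus and granulosa cells 7 had no count in any oocyte, among them Amh, Fshr, Inha, Foxl2 and Ptx3. The summed level was 66.7, 36.2, 54.3 and 18.8 CPM in wt1, wt3, wt4 and wt5, 64.3 CPM in C3, and 88.1, 81.5, 149, 113 and 110 CPM in D1, D2, D3, D4 and D7. Of the 12 markers 2 were tested, Cyp19a1 and Nr5a2, and 1 was called, beside 25.9% of all genes. Cyp19a1 was the most abundant and the one called (1.48, SE 0.46), a call lost without wt3 (1.34, adjusted p = 0.0618 from edgeR) and with library totals (1.17, adjusted p = 0.0591). Against C3 alone Cyp19a1 was at 0.78. It made up 740 of the 746 counts in D4 and 19 of the 42 in wt5. Has2, a cumulus marker that was not tested, had 4, 14, 3 and 2 counts in wt1, wt3, wt4 and wt5, 0 in C3, and 0, 1, 0, 0 and 0 in D1, D2, D3, D4 and D7. Nr5a2 was at -1.60 (SE 0.68), and was called without C3 (-1.88) or D7 (-2.17) and with library totals (-2.15). Inhba and Tnfaip6 were the other 2 of the 7 at 0.

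The 3 genes outside the group whose profile lay closest to that of H1foo were Tcl1, Oas1d and Anxa9. The measure was the root mean square difference of log2 CPM, centred on each gene's mean over the 10 oocytes, and it was 0.246, 0.259 and 0.277, beside a median of 1.17 over all genes tested.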

How the data were processed

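Single-oocyte RNA-seq was analysed from 14 libraries. The deposited values are raw, unnormalized counts for RefSeq genes. The authors aligned filtered single-end reads to mm10 (TopHat2 2.0.6 per the labels), retained uniquely placed best hits and ran HTSeq on them. Libraries of a shared oocyte name were summed. The 9198 genes with the highest totals (60% of those counted) were compared between 5 control and 5 mutant oocytes with edgeR 4.0.16 in R 4.3.3 (TMM, quasi-likelihood test, Benjamini-Hochberg). TMM factors were 1.30 to 1.37 in wt/wt, 0.651 in f/f and 0.779 to 0.952 in mutant oocytes. Shares within a family were compared by exact two-sided permutation. Coordinates and transcripts came from GENCODE vM21 (GRCm38). All members were named, with Kdm1a and, per list, called genes (up to 4) and the 2 most abundant not called. Further genes of the lists, such as Cabin1, Actr6, Gdf9, Mos and Has2, are named outside this rule. Alternatives covered scaling, filter, call rule, libraries, control group, depth, block and each oocyte left out, with DESeq2 1.42.0 as the other tool. One gene of a list and 1 coding stretch are not reported here. Tested on simulated counts, the edgeR procedure missed most changes of the 2 sizes tried. Total counts limit the precision for scarce genes, standard errors include the spread between oocytes, and intervals and floors of 3 counts cover counting error only. The members and lists were chosen with earlier results of these data known.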

Additional observations from a re-analysis of the deposited data

Results flagged for a closer look

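In 5 of 26 sets of 5 oocytes, 1 oocyte lay far from the other 4 relative to the range of the set, where chance gives about 1 in 20. Values are the gap to the nearest oocyte as a share of the range. For H2afz, D4 was above the other mutant oocytes (0.875). For H2afv, wt5 was above the other controls (0.712). For H3f3b, C3 was above the other controls (0.764). Total counts were highest in C3 among controls (0.907) and in D4 among mutants (0.750). C3 and D4 are each the sum of a pair of libraries, as are D3 and D7. The part of depth in the levels of H2afz and H3f3b was not tested.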

How the results depend on the processing

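Over 14 alternatives the 3 family shares had differences of 25.5 to 30.3 percentage points for H3f3a, 5.59 to 9.14 for H2afz and 0.766 to 1.68 for H1foo. Since the groups do not overlap on these shares, leaving out an oocyte, which makes up 10 of the 14, could not turn their direction, and wt/wt alone repeats the comparison without C3. Without 1 oocyte at a time, 1607 to 2885 genes were called, with 1 to 3 members higher and 2 to 3 lower. With filterByExpr 1 member was called lower, since H2afv was not kept.

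With the f/f oocyte alone as control, chosen after seeing the data, 3 genes were called in place of 2384, with 0 members higher and 0 lower, on 1 control in place of 5. Signs turned there for the members H1foo (-0.073) and H3f3b (-0.41). Among the named genes of the lists, signs turned for Asf1a (0.087), Yeats4 (-0.52), Npm1 (-0.25), Nap1l1 (0.34), Baz1b (-0.38), Rnf8 (-0.10), Nr5a2 (0.78) and Mos (-0.089). With library totals, which moved the median of all genes from 0.17 to -0.23, they turned for H3f3b (-0.23), Npm1 (-0.15) and Baz1b (-0.28), with every library as its own sample for Baz1b (-0.11), and with wt/wt alone for Ep400 (0.29). Without 1 oocyte, Ep400 ranged from -0.34 to 0.29 and Baz1b from -0.025 to 0.31. None of these genes was called in the comparison of 5 with 5.

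Replicate numbers name libraries and pair none, with correlations between same-numbered libraries of -0.0902 to 0.0984. Every library as its own sample gave 2885 genes called, and the replicate block 966, with 0 members higher and 1 lower. Under the block Ep400 was at 0.040 and Baz1b at -0.13. Depth limits H2afv, H2afy and H2afj most.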

Other observations

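The pairs of libraries that share an oocyte name differed by gene. In CPM of the unadjusted library total, H1foo was 21540 in the library without the suffix DNA and 14110 in the library with it for C3, and 22340 and 14940 for D3. For D4 the values were 17690 and 14300, and for D7 21460 and 11650. The library with the suffix was the lower in all 4 pairs, by ratios of 1.24 to 1.84. H2afz went the other way, with 17.01 without the suffix and 23.59 with it for C3, 13.39 and 21.52 for D3, 62.01 and 62.8 for D4, and 12.18 and 28.39 for D7. In C3 the library with the suffix also held more counts of H2afv (15 beside 3) and of H2afj (8 beside 1). For H3f3b the ratio of the higher to the lower library was 1.01 to 1.08 in the same pairs. What the suffix stands for is not given in the sources used here, and no test was made.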
